A study of Ictidomys tridecemlineatus with 15 samples.

Results

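Immature cones of the 13-lined ground squirrel (Ictidomys tridecemlineatus) were examined here as the cells that the study's deposited annotation called cones at postnatal days 1, 4, 8 and 12 (P1, P4, P8 and P12, with the day of birth as P0). The rule took 1055 of the 53394 deposited cells and 1055 of the 2997 annotated cones, the other 1942 being cones of P17 and P21. Single-cell RNA-seq was made from whole retinas of unmanipulated, captive-bred animals of each age, with no genotype or treatment distinguishing the groups. The tissue had been either fixed in methanol or flash-frozen and taken as nuclei. Which samples took which route was not given per sample. Nothing in the labels said that replicate samples of one age came from separate animals. The p-values below measure the spread between samples within the groups compared, which may be technical and also holds differences of age. The older cones had no replicate sample of P17 or of P21, and the younger group joined P8 with P12.

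Cones are the photoreceptors of daylight vision: opsin in the outer segment absorbs light, a cone transducin passes the signal to a phosphodiesterase, and cone arrestin and the cyclic-nucleotide-gated channel shape and carry the response. They arise from post-mitotic photoreceptor precursors, which also give rods, and switch on this phototransduction set gradually as they mature. The ground squirrel is a diurnal rodent whose retina is dominated by cones, in contrast to the rod-rich retinas of mice.

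The 5 marker names listed for this cell type (Arr3, Gnat2, Opn1sw, Pde6h and Gngt2) could not be looked up, because the count matrix held 34181 rows and the list of gene names held 30265 entries with nothing to tie an entry to a row. A gene is therefore named by its matrix row, with the first row as row 1, and no function is assigned to any of them. The label was checked instead against rows that were concentrated in the older cones, as described below. The annotation was itself made from the expression of these cells, so every contrast of cones with other cells is a description and was not tested.

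The cones came from P1 (10 cells), P4 (9 cells), 2 libraries of P8 and 2 libraries of P12. Letters tell the paired libraries of an age apart and carry no link to the labelled replicates. At P8 the first library (P8a) held 82 cones and the second (P8b) held 0. At P12 the numbers were 570 in P12a and 384 in P12b. The P1 cells carried 2 library suffixes while the labels gave 1 P1 sample, so the 10 P1 cones were counted and not analysed further, and 1045 cones were left.

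The libraries were not equally deep. The median cone held 1957 unique molecular identifiers (UMIs, each marking 1 captured RNA molecule) at P4, 2341 in P8a, 3256 in P12a and 5256 in P12b, against 3144 at P17 and 2362 at P21. The summed cones held 17924 UMIs at P4, 252983 in P8a, 2658562 in P12a and 2637223 in P12b, so that statements on P4 rest on few molecules. The 7 libraries shared between 0 and 8 cell barcodes per pair, and 1 barcode was shared between cones, of P12a and P12b. P8b stood apart from P8a: its 1369 cells included 669 photoreceptor precursors and no cones, against 157 precursors among the 3012 cells of P8a. It entered the cell shares and, through its precursors, the precursor profile used below.

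Cones went from a small share of the photoreceptor lineage at P4 to most of it at P12. Of all cones, rods and photoreceptor precursors together, cones made up 9 of 477 cells at P4 (1.89%, 95% Wilson interval 0.996 to 3.55), 82 of 239 in P8a (34.3%, 28.6 to 40.5) and 0 of 669 in P8b, where the Wilson upper limit was 0.571% and 3 counts would be 0.448%. The share was 570 of 622 in P12a (91.6%, 89.2 to 93.6) and 384 of 492 in P12b (78.0%, 74.2 to 81.5). The intervals of the 2 P12 libraries did not overlap, and those of the 2 P8 libraries lay far apart. The intervals cover counting error only.

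Annotated precursors numbered 468 at P4, 157 in P8a, 669 in P8b, 36 in P12a and 94 in P12b, and none were annotated at P17 or P21. Rods were annotated from P12 on, with 16 cells in P12a and 14 in P12b, and no rod was annotated at P4 or P8. The lineage share of cones was 92.9% at P17 and 94.5% at P21, and both P12 values were lower. With 1 or 2 libraries per age the difference between ages was not tested. Where the annotation drew the line between precursor and cone was not tested.

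**Figure D1:**
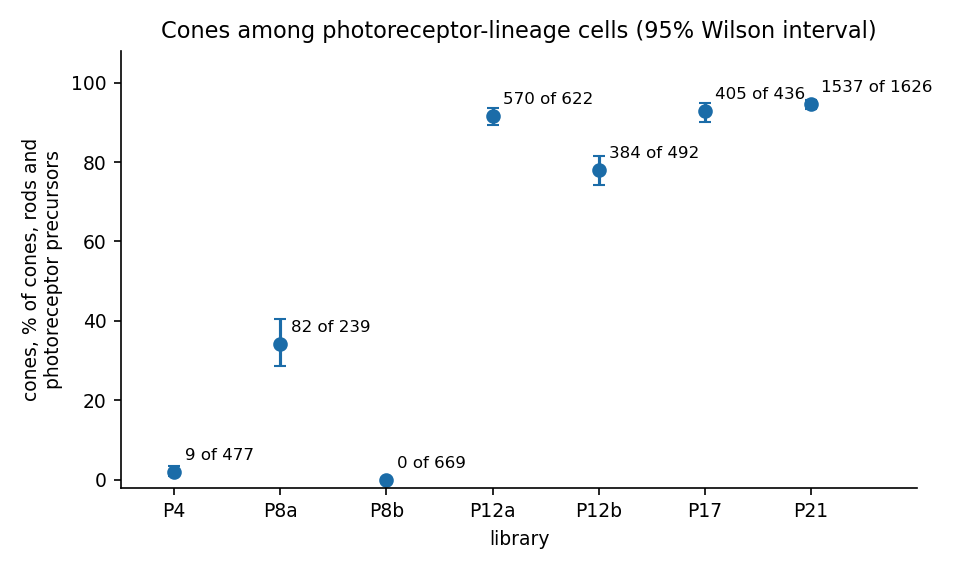
The share of cones among cones, rods and photoreceptor precursors (y axis, percent) is plotted for each library (x axis); bars are 95% Wilson intervals and the labels give the numbers of cells. The share was 1.89% at P4, 34.3% in P8a and 0 in P8b, and stood at 91.6% and 78.0% in the 2 P12 libraries.

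Most rows that marked the older cones already marked the cones of P8 and P12. A list was made of the 151 rows that reached at least 50 CPM (UMIs of a row per 1000000 UMIs of the sum) in the summed cones of both P17 and P21 and were at least 4-fold above all other cells in each. Of these 151 rows, 115 (76.2%) were also at least 4-fold above the other cells in P8a, 124 (82.1%) in P12a and 118 (78.1%) in P12b. Among all rows at 50 CPM or more in the cones of these libraries, 4.06%, 4.57% and 4.44% were at least 4-fold above the other cells. The list rows were not held to 50 CPM in these libraries, a level that 106, 125 and 123 of them reached. The median log2 ratio of cones to other cells over the list was 2.12, 2.60 and 2.51, against 0.15, 0.12 and 0.08 over all rows at that level.

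In all 3 libraries, 103 of the 151 rows (68.2%) were 4-fold enriched, and 19 rows were so enriched in none of them. Rows above the other cells by any amount numbered 149 in P8a, 151 in P12a and 151 in P12b. At P4 the 9 cones gave 80 rows at 4-fold, but 49 rows of the list had 0 UMIs there. Of all rows at 50 CPM or more in those cones, 21.4% reached 4-fold, so the P4 sum was too shallow for this count. Enrichment of the list in P17 and P21 is how the list was chosen.

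The list took up a small and rising part of the RNA of young cones. It held 2.90% of all cone UMIs at P4, 3.57% in P8a, 4.61% in P12a and 4.45% in P12b, and then 6.80% at P17 and 13.1% at P21, the ages that defined it. In amacrine cells, inhibitory interneurons, the same rows held between 0.269% and 0.489% in every library from P4 to P21. In bipolar cells, which relay cone and rod signals, they held 0.976% in P8a, 0.961% in P12a and 0.829% in P12b. The cone value was 13.1 times the amacrine value in P8a, 13.6 times in P12a and 15.5 times in P12b.

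Precursors and rods lay nearer to the cones. In photoreceptor precursors the list held 1.86% at P4, 1.90% in P8a, 1.13% in P8b, 2.44% in P12a and 2.51% in P12b, so that cones exceeded the precursors of their own library 1.88-fold in P8a, 1.89-fold in P12a and 1.77-fold in P12b. In the few rods of P12 it held 4.73% in P12a and 4.03% in P12b, beside 4.61% and 4.45% in the cones. A list made in the same way from the rods of P17 and P21 had 66 rows, of which 23 (34.8% of that list and 15.2% of the cone list) were in both. In single cells the median share of the cone list was 3.67% in cones and 1.99% in precursors of P8a, 4.77% and 2.50% in P12a, and 4.53% and 2.45% in P12b.

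In the libraries of P8 and P12, all 82 cones of P8a, all 570 of P12a and all 384 of P12b exceeded the 95th percentile of the amacrine cells of their library. When the P12b cones were split by UMI count into 3 equal parts, the lowest, middle and highest parts gave 4.55%, 4.52% and 4.45%. In P8a the deepest part stood at 3.16% and the shallowest at 3.99%.

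**Figure D2:**
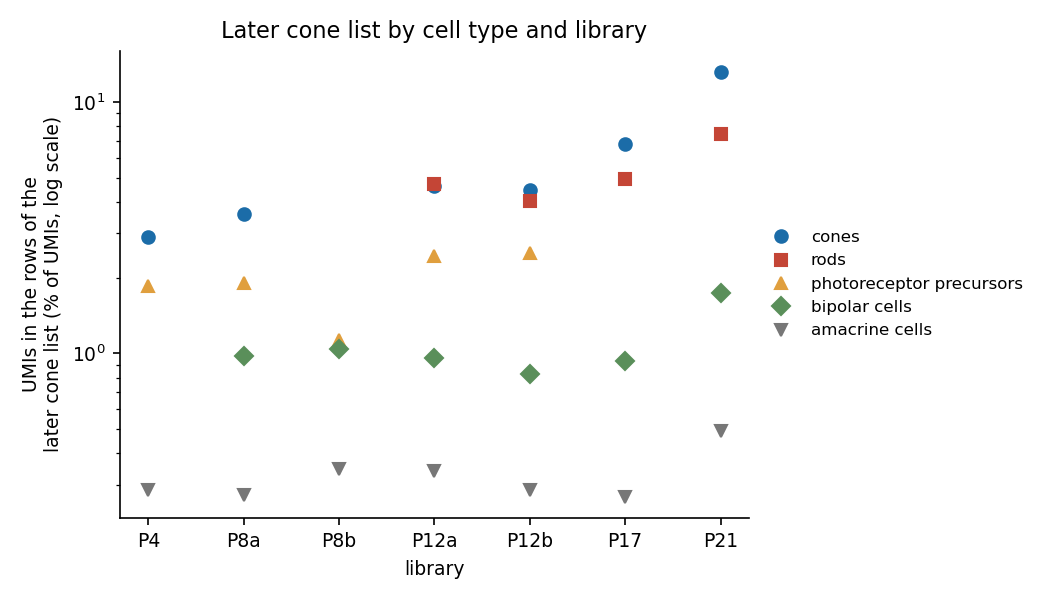
The share of UMIs in the 151 rows of the later cone list (y axis, percent, log scale) is plotted for the summed cells of each type in each library (x axis); types with under 5 cells in a library are left out. Cones lay between 2.90% at P4 and 4.61% in P12a, about level with the P12 rods and above precursors, bipolar cells and amacrine cells, and reached 13.1% at P21.

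Lists of the other cell types were low in the cones. The list of 75 rows made from P17 and P21 bipolar cells held 0.444% of cone UMIs in P8a, 0.560% in P12a and 0.475% in P12b, against 0.402% at P17 and 0.230% at P21. In the bipolar cells themselves it held 1.55%, 1.89% and 1.90% in P8a, P12a and P12b, and in the precursors 0.638%, 1.14% and 1.07%. The list of 49 amacrine rows held between 0.111% and 0.185% in cones of P8 and P12, against 1.08% to 1.22% in amacrine cells. The rod list held 0.344%, 0.419% and 0.427% in the cones of P8a, P12a and P12b, and 1.59% and 1.69% in the rods of P12a and P12b. The list of 276 rows from Müller glia held 1.32%, 1.33% and 0.910% in these cones, against 6.23%, 8.27% and 6.84% in the glia, and that of 178 ganglion cell rows held 0.540%, 0.518% and 0.337%, against 7.38%, 8.31% and 5.94%. A list for precursors had 9 rows, 7 of them on the cone list, and one for neurogenic progenitors had 0 rows, so neither could separate those cells from cones.

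Lists made in 1 young library carried over to the others. Of 161 rows enriched in P12a cones, 139 (86.3%) were enriched in P12b, 124 (77.0%) in P8a, 145 (90.1%) at P17 and 128 (79.5%) at P21. Of 145 rows from P12b, 138 (95.2%) were enriched in P12a and 117 (80.7%) in P8a. Of 137 rows from P8a, 110 (80.3%) were enriched in P12a, 107 (78.1%) in P12b and 103 (75.2%) at P21. At P17 and P21, 6.11% and 8.91% of all rows at 50 CPM or more in the cones were at least 4-fold above the other cells.

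The level of these rows still differed between P12 and P21. Of the 151 rows, 124 stood higher in the P21 cones than in the mean of the 2 P12 libraries and 27 stood lower. The list was chosen for its level at P17 and P21, so this direction is no independent finding. The difference came to 8.62% of all UMIs, of which row 3428 made up 2.06%. Row 3428, named here after its values were seen, stood at 217 CPM in P8a, 1384 in P12a and 806 in P12b, then at 3560 at P17 and 21744 at P21. Without that row the list held 4.47% of cone UMIs in P12a, 4.37% in P12b, 6.45% at P17 and 10.97% at P21.

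One abundant row stood higher in the photoreceptor lineage than in amacrine and bipolar cells at all ages. The most abundant row in cones of P12, row 17000, held 94210 CPM in P12a and 77582 CPM in P12b and stood higher in the joint sum of amacrine and bipolar cells (132692 and 113844 CPM). The row after it, row 27456, held 13700 and 9637 CPM in cones and 12209 and 8593 CPM in the other group. Behind these, row 28549, named after its values were seen, held 5189 CPM in cones at P4, 8882 in P8a, 10524 in P12a, 8653 in P12b, 10283 at P17 and 11500 at P21. In the joint sum of amacrine and bipolar cells row 28549 held between 120 and 715 CPM. Bipolar cells alone held 1015 CPM of it in P12a and 1558 CPM at P21. In precursors row 28549 held 2385 CPM at P4, 3988 in P8a, 5474 in P12a and 4419 in P12b, and in rods 12564 CPM in P12a. Its cone level from P8 to P12 (9353 ± 1021 CPM, SD, n = 3 libraries) and at P17 and P21 (10891 ± 861, n = 2) overlapped.

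The 20 most abundant rows held 17.2% of cone UMIs in P8a, 18.2% in P12a and 17.4% in P12b, against 15.6% at P17 and 20.4% at P21. When each cell was thinned to 1000 UMIs, the median cone showed 662 rows in P8a, 696 in P12a, 667 in P12b, 684.5 at P17 and 665 at P21. The younger shares lay between the 2 later shares, and the later medians of detected rows lay within the range of the younger ones.

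Single cones of P8 and P12 spread between a precursor-like and an older cone-like profile. Each cell was thinned to 1000 UMIs and scored by a multinomial log likelihood ratio per UMI, over 3859 rows. The ratio set the mean CPM profile of the P17 and P21 cones against that of the P4 and P8b precursors. The score was above 0, nearer the older cones, in 6 of 82 cones of P8a (7.32%, 95% Wilson interval 3.40 to 15.1), 365 of 564 in P12a (64.7%, 60.7 to 68.5) and 147 of 382 in P12b (38.5%, 33.7 to 43.5). The P12 libraries differed from each other by more than their counting intervals, and each lay above P8a. No precursor of P8a (of 157) or P12a (of 36) and 1 of 93 in P12b was above 0. Rods scored above 0 in 12 of 16 cells of P12a and 4 of 14 of P12b. A score above 0 was thus not particular to cones.

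The level of the score also shifted with the library. The median score was -0.10 in cones, -0.18 in precursors and -0.22 in amacrine cells of P8a. In P12a it was 0.03, -0.09 and -0.12, and in P12b -0.03, -0.12 and -0.14. The distance from amacrine cells to cones was 0.12 in P8a, 0.14 in P12a and 0.11 in P12b, and thus did not follow the order of the shares, so a difference in the share nearer older cones cannot be told apart from a shift that all cells of a library shared. Within each library the cones lay above the precursors, by 0.09, 0.12 and 0.10.

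Summed profiles were compared in the same libraries. Over 3305 rows, as a description, the log levels of P12b cones correlated with those of P12b precursors at r = 0.965 with P17 cones at 0.917 and with P12a cones at 0.906, while P12a cones correlated with P12a precursors at 0.923 and with P8a cones at 0.935. P8a cones correlated with P8a precursors at 0.943. Among the cones compared, those of P21 were least like the young ones, at 0.698 for P8a, 0.755 for P12a and 0.714 for P12b. Amacrine cells of the same library stood no lower, at 0.789 for P8a, 0.756 for P12a and 0.740 for P12b. The ranking is therefore not a measure of cone maturity alone. These profiles share libraries and depth, and the rows are not independent.

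Cones of P17 and P21 were then compared with cones of P8 and P12 to ask which rows changed as cones matured. UMIs were summed over the cones of each library, giving 3 younger sums (P8a, P12a and P12b) and 2 older ones, and tested with edgeR's quasi-likelihood test. Of 12742 rows tested, 13 (0.102%) passed a Benjamini-Hochberg adjusted p of 0.05, 10 higher (0.0785%) and 3 lower (0.0235%) in the older cones, and 1804 rows had an unadjusted p under 0.05. The libraries of the 2 stages did not overlap in 3859 rows, 30.3% of those tested. The count of 13 became 1564 without the P17 library, 50 without P21, 3 without P8a or without P12a and 6 without P12b.

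The largest rises were in rows 17804 and 26671. Row 17804 held 0 UMIs in P8a cones (3 UMIs would be 11.9 CPM), 2.63 CPM in P12a and 5.31 in P12b, then 161 CPM at P17 and 102 at P21. It rose by a log2 fold change of 5.31 (SE 0.49, edgeR adjusted p = 0.00181). In amacrine and bipolar cells it went from 0.431, 4.03 and 7.27 CPM to 171 and 93.9 CPM, with levels like those of the cones at each age, and the difference in change was 0.73 (SE 0.37, edgeR adjusted p = 0.416). Row 26671 held 3.95 CPM in P8a, 4.51 in P12a and 6.07 in P12b, and 36.0 at P17 and 178 at P21, a log2 fold change of 4.62 (SE 0.68, edgeR adjusted p = 0.0443). In amacrine and bipolar cells row 26671 held 0, 0.269 and 0.155 CPM (0, 2 and 2 UMIs) and then 0.476 and 4.65 CPM (6 and 41 UMIs). The difference in the change of row 26671 was 0.99 (SE 0.98, edgeR adjusted p = 0.767) and rests on these few molecules. Its call in cones was lost without P8a (edgeR adjusted p = 0.269), P12a (0.181) or P12b (0.137), and without P21 its log2 fold change was 2.86.

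The largest falls were in rows 26625 and 24255. Row 26625 held 115 CPM in P8a, 75.2 in P12a and 104 in P12b and then 2.28 and 2.01 CPM, a log2 fold change of -5.28 (SE 0.46, edgeR adjusted p = 0.00168). It was also high in precursors, at 203 CPM at P4 and 101 CPM in P12b. In amacrine and bipolar cells it went from 35.1, 13.7 and 13.8 CPM to 3.89 and 0.113 CPM, the last being 1 UMI. The difference in its change was -1.59 (SE 0.82, edgeR adjusted p = 0.423). Row 24255 held 138, 143 and 83.0 CPM in the young cones and 19.4 and 7.28 CPM in the older ones, a log2 fold change of -3.05 (SE 0.46, edgeR adjusted p = 0.0443). The call was lost without P8a (edgeR adjusted p = 0.265), P12a (0.181) or P12b (0.0637) and without cells of high UMI count (0.0608). It stood higher in amacrine and bipolar cells of every one of these libraries, between 162 and 508 CPM, and the difference in its change was -2.44 (SE 0.43, edgeR adjusted p = 0.0180). The bipolar list, which held 0.444% to 0.560% of UMIs in the young cones and 0.402% and 0.230% in the older ones, moved the same way, and its part in this fall was not tested.

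To ask which rows changed with age in cones otherwise than in interneurons, the change in cones was set against that in the amacrine and bipolar cells of the same libraries, with the library as a block. Of 15565 rows, 172 (1.11%) differed at an adjusted p of 0.05, 53 with the higher change in cones (0.341%) and 119 with the lower (0.765%), and 2100 rows had an unadjusted p under 0.05. Both comparisons used the same cone sums. The stages did not overlap in cones minus interneurons in 4819 rows (31.0%). Without P8a the count was 0 (1714 rows at an unadjusted p under 0.05), without P12a 26, without P12b 37 and without P17 2704.

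The 2 rows named for a higher change in cones were low in interneurons at P17 and P21. Row 31191 held 126, 219 and 266 CPM in the cones of P8a, P12a and P12b and 133 and 44.2 CPM in those of P17 and P21, while amacrine and bipolar cells held 22.9, 17.7 and 29.8 CPM and then 1.03 and 0.567 CPM. The log2 difference in change was 3.83 (SE 0.44, edgeR adjusted p = 0.00136). With all sums thinned to equal UMIs the difference was 0.94 (SE 0.85, edgeR adjusted p = 0.800). Each thinned sum held 252983 UMIs, where 3 UMIs would be 11.9 CPM. The later interneuron levels of row 31191 lay below that floor. Row 12756 held 75.1, 86.5 and 92.9 CPM in the young cones and 143 and 88.1 CPM in the older ones, against 13.4, 12.1 and 14.1 CPM and then 3.96 and 1.93 CPM in the interneurons, a difference of 2.84 (SE 0.31, edgeR adjusted p = 0.00127). With thinned sums the difference was 5.79, again with later interneuron levels below that floor. Without P8a neither row was called (edgeR adjusted p = 0.0599 and 0.0622). In cones alone neither row passed the test, with adjusted p of 0.302 for row 31191 and 0.409 for row 12756.

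Among rows with the lower change in cones, row 13185 held 47.4, 78.6 and 57.3 CPM in young cones, 53.7 at P17 and 1.51 at P21, while the interneurons went from 12.5, 15.9 and 7.50 CPM to 54.6 and 41.5 CPM. The difference was -3.78 (SE 0.74, edgeR adjusted p = 0.0274), and the low cone level was that of P21 alone. The call was lost without P8a (edgeR adjusted p = 0.297), P12a (0.0736) or P12b (0.145) and with thinned sums (0.0975), and without P21 the difference was -2.43. Row 9488 held 94.9, 107 and 58.8 CPM in young cones and 20.6 and 3.01 CPM in older ones, with 147, 329 and 276 CPM and then 260 and 397 CPM in interneurons, a difference of -3.21 (SE 0.58, edgeR adjusted p = 0.0189). This call was lost without P8a (edgeR adjusted p = 0.281), P12a (0.0534) or P12b (0.0524), and without P21 the difference was -1.77. Against amacrine cells alone, rows 31191 and 13185 were not called, with differences of 1.01 (edgeR adjusted p = 0.566) and -1.06 (adjusted p = 0.557).

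**Figure D3:**
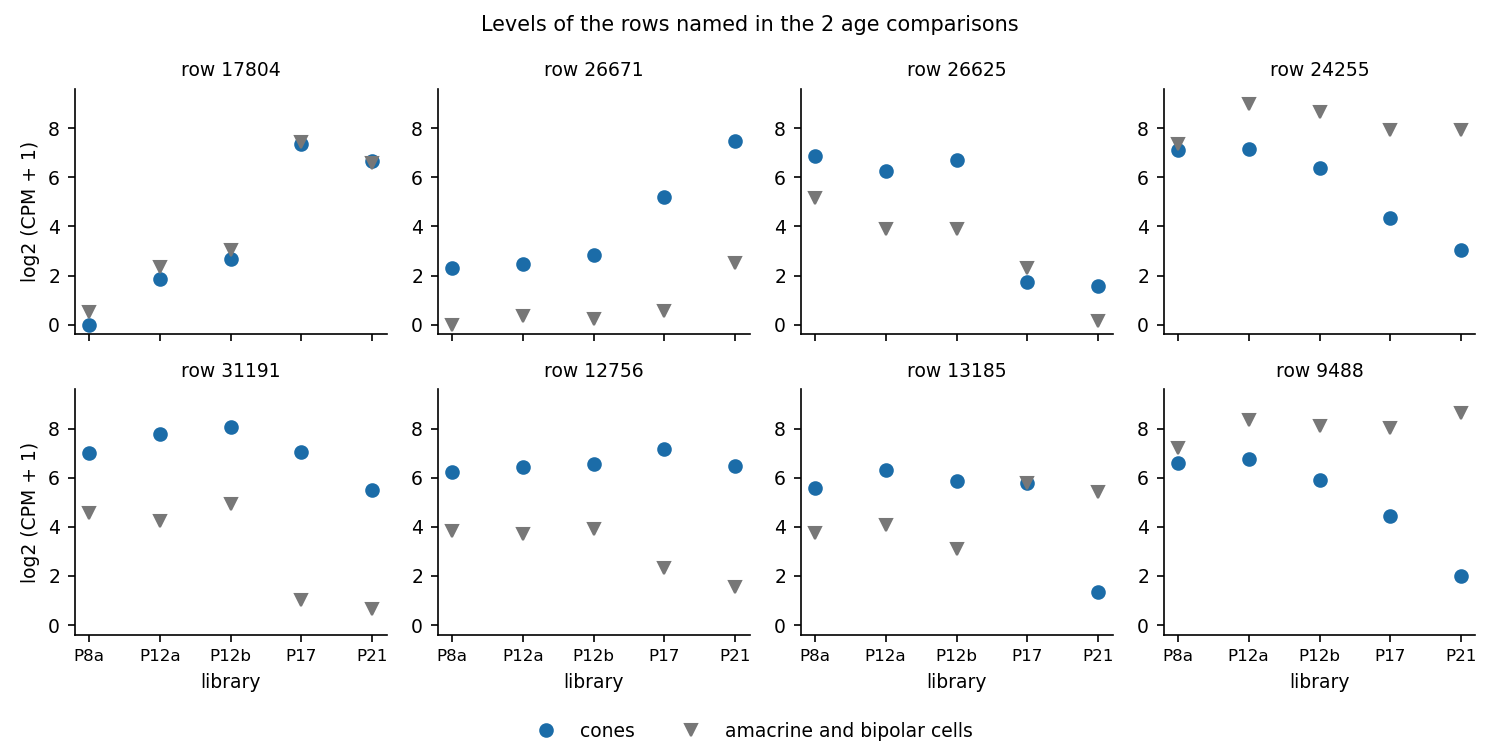
Levels of the 8 named rows (y axis, log2 of CPM + 1) in the summed cones (circles) and in amacrine and bipolar cells together (triangles) are plotted for each library (x axis); a point is 1 library. Row 17804 reached 161 and 102 CPM in older cones and 171 and 93.9 CPM in the other class, while row 26671 reached 178 CPM in P21 cones and 4.65 CPM in the other class.

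Some rows were unevenly spread among cones of the same age. For each P12 library, rows with a mean of at least 0.1 UMIs in cones thinned to 1000 UMIs were ranked by the ratio of variance to mean, and the top 50 were kept. The 2 lists shared 21 rows (42.0% of each), where 50 rows are 3.66% of the 1365 rows eligible in both libraries. Of the 21, 16 stood higher in cones than in all other cells in both libraries and 8 were on the later cone list. The most uneven were row 17000, the most abundant row of all cells, with ratios of 5.32 in P12a and 4.29 in P12b, and row 13745, with 2.61 and 3.57.

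Row 13745 was concentrated in a minority of the cones. At least 3 UMIs of it were found in 39 of 570 cones of P12a (6.84%, 95% Wilson interval 5.05 to 9.22) and 37 of 384 cones of P12b (9.64%, 7.07 to 13.0), and these cells held 91.5% and 93.2% of its cone UMIs. In P8a 2 of 82 cones reached this level, at P17 10 of 405 (2.47%) and at P21 4 of 1537 (0.260%). Another 505 cones of P12a and 316 of P12b had 0 UMIs of the row.

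These cells were deeper than the rest, with a median of 6349 against 3078 UMIs in P12a and 7997 against 4935 in P12b. When every cone was thinned to 1000 UMIs, at least 1 UMI was found in 6.10% of cones in P8a, 6.21% in P12a, 8.90% in P12b, 2.01% at P17 and 0.797% at P21. In the same way it was found in 0.719% of amacrine cells in P12a and 1.35% in P12b, whose median depths were 2094 and 3598 UMIs against 3256 and 5256 in cones. Photoreceptor precursors lay nearer to the cones, with 2.78% of 36 cells in P12a and 4.30% of 93 in P12b. Bipolar cells held it in 0.619% of cells in P12a and 1.67% in P12b. The P21 share in cones was close to that of its amacrine cells (0.509%), and the P12 shares were not. At P17 the 2.01% of cones stood beside 1.25% of amacrine and 1.59% of bipolar cells. Without cells above 2 times the median UMI count of their cell type in their library, cones at 3 or more UMIs were 4.39% in P12a and 8.15% in P12b.

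The minority carried few other rows in common. At 4-fold and 50 CPM, 4 rows were higher in it in P12a (0.103% of rows at that level) and 16 in P12b (0.441%), and 3 were in both lists. The clearest, named after their values were seen, were rows 13746 and 27062. Row 13746, the row next to 13745 in the matrix, held 760 CPM in the minority and 104 CPM in the other cones of P12a, and 1245 and 61.2 CPM in P12b. Row 27062 held 264 and 34.7 CPM in P12a, and 496 and 21.6 CPM in P12b. In the older libraries the minority again held more of rows 13746 and 27062, with 794 against 21.2 CPM of row 13746 and 3681 against 84.2 CPM of row 27062 in the 10 cells of P17. The third shared row, 33880, did not carry over at 4-fold. It held 0 against 49.0 CPM in the 2 cells of P8a, 9.92 CPM (1 UMI) against 6.67 CPM at P17 and 471 against 282 CPM at P21. Reads of neighbouring or overlapping genes cannot be told apart here, so rows 13745 and 13746 may not be independent.

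The co-occurrence was also counted at equal depth. Rows 13746 and 27062 were chosen for it in these same cones, so the counts are a description and no independent support. With 1000 UMIs per cone, row 13746 was found in 22 of the 35 P12a cones that held row 13745 (62.9%, 46.3 to 76.8) and in 24 of the 529 that did not (4.54%, 3.07 to 6.66), and in P12b in 21 of 34 (61.8%, 45.0 to 76.1) and 19 of 348 (5.46%, 3.52 to 8.37). Row 27062 was found in 10 of 35 and 7 of 529 in P12a and in 10 of 34 and 6 of 348 in P12b. Row 28549 was about equal in the minority and the other cones (10269 and 10563 CPM in P12a, 9734 and 8478 CPM in P12b), which gives no sign that they lacked this row.

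**Figure D4:**
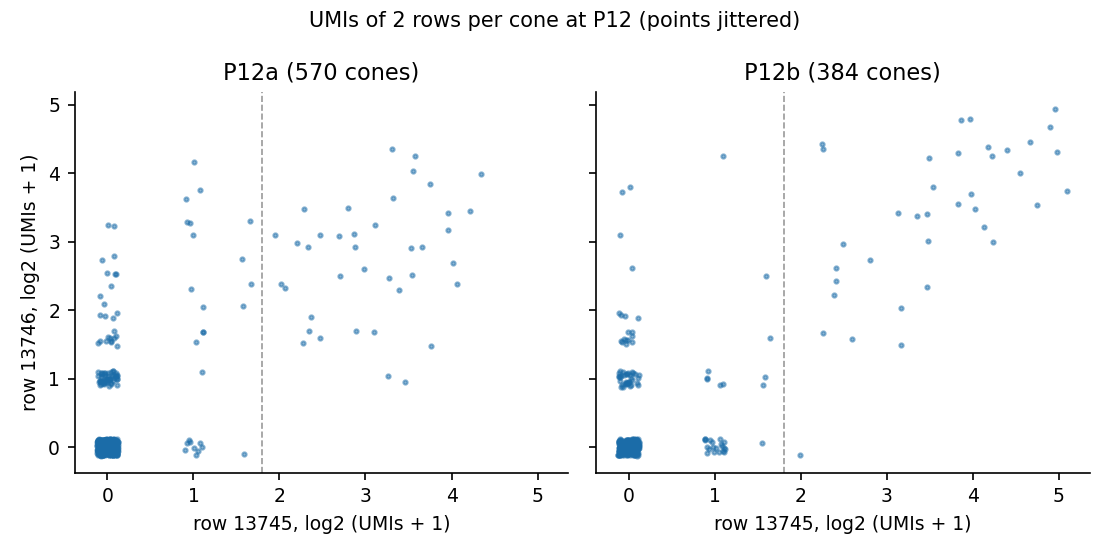
Each point is 1 cone of P12a (left) or P12b (right), with its UMIs of row 13745 on the x axis and of row 13746 on the y axis (both log2 of UMIs + 1, jittered); the dashed line separates cones with 3 or more UMIs of row 13745. The 39 and 37 cones to the right of the line mostly carried row 13746 too, while most cones lay at 0 for both rows.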

How the data were processed

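The authors deposited a matrix of UMI counts for 34181 rows and 53394 cells, aligned with Cell Ranger 3.1.0 and annotated in Seurat 4.0.4, per the labels and the study's methods, and a table of cell names, ages and types. The study names the ground squirrel assembly HiC_Itri_2 for alignment; the labels give GRCm38. Cell filters, doublet treatment and the depth setting used in joining libraries were not given in the sources used here, and no doublets were removed here. Counts were summed per library and type, with library taken from age and cell-name suffix; 2 suffixes of P1 were only counted. Sums of at least 10 cells were tested with edgeR 4.0.16 (R 4.3.3; TMM, filterByExpr, glmQLFTest), called at a Benjamini-Hochberg adjusted p of 0.05, after a test on simulated data; DESeq2 1.42.0 was an alternative. CPM are UMIs of a row per 1000000 UMIs of a sum. Thinning was without replacement. Named rows were the 2 largest rises and falls among called rows at 50 CPM or more with no overlap between stages, the 2 most abundant rows and the 2 most uneven rows; others were named after their values were seen. Members and lists were chosen with earlier results of these data known. Gene names and sequences were not used, since no source paired them with rows.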

Additional observations from a re-analysis of the deposited data

Results flagged for a closer look

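The age change in cones differed from that in amacrine and bipolar cells in the 4 named rows, by the interaction test in edgeR. It was higher in cones by 3.83 for row 31191 and by 2.84 for row 12756 on the log2 scale, and lower, at -3.78 for row 13185 and -3.21 for row 9488. Rows 31191 and 13185 were not called when amacrine cells alone were the comparison or with sums thinned to equal UMIs, where row 31191 stood at 0.94 (edgeR adjusted p = 0.800) and row 13185 at -2.55 (adjusted p = 0.0975). At the thinned depth the later interneuron levels of row 31191 would lie below 3 UMIs. None of the 4 was called without P8a, and rows 13185 and 9488 were not called without P12a or P12b either.

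The 10 cones annotated at P1 lay outside the comparisons, among 6920 P1 cells of 2 library suffixes. The annotation thus named cones before P4, and their profile was not analysed here.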

How the results depend on the processing

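No paired analysis was possible because the cell names carry no replicate number of the labels, so samples of different ages could not be paired; the block in the comparison with interneurons joins cell types of 1 library. The 13 rows called between older and younger cones became 274 with DESeq2, 742 with no filter on low counts, 64 with sums thinned to equal UMIs, 20 without cells of high UMI count, 525 with P4 added, 600 with age as a continuous covariate and 3 with the P12 libraries alone, and ran from 3 (without P8a or P12a) to 1564 (without P17) when 1 library was left out. The 172 rows of the comparison with interneurons became 862, 91, 297, 541 and 1545 under the same changes of filter, thinning, high-UMI cells, P4 and continuous age, stayed within 1.5 times with DESeq2 (119), and ran from 0 (without P8a, which is also the fit on P12 alone, with 1714 rows at an unadjusted p under 0.05 in edgeR) to 2704 (without P17). The cause was not tested, and a fit that keeps 1 library at a stage assumes that it varies like the other stage. Of 111 refits of the 8 named rows, none changed sign and 25 lost the call. Rows 17804 and 26625 were called in all 13 of theirs. The rows were named for large, called changes without overlap between stages in these same sums. The kept sign is therefore largely set by that choice and is no independent support. The mean cone share at P12, 84.8%, became 11.5% over all cells of the library, the enriched part of the later list went from 78.8% to 89.2% against amacrine cells alone, and the shared part of the uneven rows from 42.0% to 68.0% in the top 25. Detected rows were 378, 1177 and 1797 at 500, 2000 and all UMIs, and the most abundant 10 and 50 rows held 13.9% and 25.9% of UMIs. These moved because the quantity itself changed. P4, with 17924 cone UMIs, limits what can be said of cones before P8.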
